A study of Bos grunniens and Bos grunniens x Bos taurus with 12 samples.

Results

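The genes described here build the acrosome and shape the sperm head: *SPACA1*, *ZPBP*, *ZPBP2*, *SPATA16*, *GOPC*, *PICK1*, *DPY19L2*, *SUN5* and *HOOK1*. They were taken by symbol from the deposited tables, where each symbol matched 1 gene, and are 9 of 20965 genes. *GOPC* and *PICK1* were set against the other 7, because both are known to be made in somatic cells as well as in germ cells. Ribo-seq, the sequencing of mRNA pieces shielded by ribosomes (ribosome footprints, RFs), was performed on testes of 4 groups with 3 animals and 3 libraries each. Yaks were 6 months old (Y6M, labelled as juvenile), 18 months old (Y18M, labelled as puberty) and 4 years old (Y4Y, labelled as sexually mature). Cattle–yaks (CY), hybrids of Jersey bulls and Gannan yak cows, were also labelled as sexually mature and 4 years old. All tissue was whole testis without sorting, so a lower level can mean fewer cells of a type or fewer footprints per cell, and these cannot be told apart. The labels give castration as the way of collection for all animals, whereas the study's methods give euthanasia for the mature yaks and castration for the cattle–yaks.

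The acrosome is a cap of Golgi origin over the front of the spermatid nucleus that holds the enzymes and receptors a sperm needs at the egg. Vesicles from the Golgi apparatus fuse into it, and proteins of the nuclear envelope hold it in place while a sleeve of microtubules, the manchette, narrows the nucleus behind it. Most of this happens in round and elongating spermatids, the germ cells that have completed meiosis, and mutations in several of these genes are known to give round-headed (globozoospermic) or headless sperm.

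Depth, as the sum of counts over genes, was 25816963 to 37167651 at 6 months, 21309151 to 24542362 at 18 months, 16304058 to 17862516 at 4 years and 38437889 to 52616039 in cattle–yak. The mature yak libraries were thus the shallowest and the cattle–yak libraries the deepest. Replicate 2 of yak of 18 months stood apart from the other libraries of its group. The summed FPKM (counts divided by gene length and library size) of 7 round spermatid markers was 654 in this library, 4.49 and 7.12 in replicates 1 and 3, 1.39 to 2.77 at 6 months, 1150 to 1613 at 4 years and 3.89 to 7.50 in cattle–yak. Of the round spermatid markers, *TXNDC8* had no counts in any library of 6 months. Tests and correlations with yak of 18 months are therefore given with and without replicate 2.

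Each of the 7 genes other than *GOPC* and *PICK1* had a higher FPKM in every mature yak library than in any juvenile or cattle–yak library. Summed over these 7 genes, FPKM was 10.2, 9.31 and 5.94 at 6 months, 11.98, 672 and 26.1 at 18 months, 1368, 1479 and 1318 at 4 years, and 53.2, 38.9 and 36.6 in cattle–yak. The sum in cattle–yak lay above every juvenile library and below every mature yak library. *HOOK1* alone gave 24.6, 16.2 and 18.9 of the sums in cattle–yak, and 96.1, 90.4 and 112 of those at 4 years. Summed over *GOPC* and *PICK1*, FPKM was 51.1, 64.8 and 69.8 at 6 months, 66.5, 106 and 77.8 at 18 months, 120, 129 and 137 at 4 years, and 128, 122 and 120 in cattle–yak. On this sum the cattle–yak libraries lay within the range of the mature yaks, but its 2 genes differed in opposite directions. The mean FPKM of *GOPC* was 85.1 at 4 years and 109 in cattle–yak, and that of *PICK1* was 43.6 and 14.5. The 7 genes thus made up 90.6% to 92.0% of the summed FPKM of all 9 genes at 4 years, 23.4% to 29.3% in cattle–yak and 7.84% to 16.7% at 6 months.

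**Figure D1:**
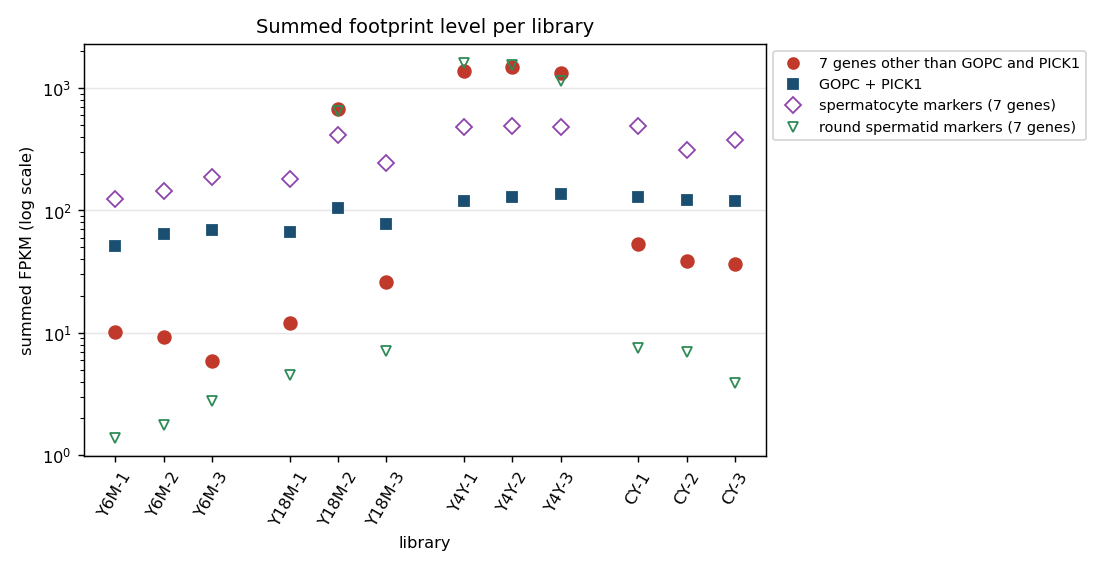
Summed FPKM per library (vertical axis, log scale) in the 12 libraries (horizontal axis, group and replicate), for the 7 genes other than GOPC and PICK1 (red circles), GOPC with PICK1 (blue squares), 7 spermatocyte markers (purple diamonds) and 7 round spermatid markers (green triangles). Each point is 1 library. The red circles of cattle–yak, at 36.6 to 53.2, lie far below those of mature yak, at 1318 to 1479. The blue squares of the 2 groups are close, with GOPC higher and PICK1 lower in cattle–yak.

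*SPACA1*, *ZPBP* and *ZPBP2* encode proteins of the acrosome itself. SPACA1 is a membrane protein of the acrosome, without which mouse sperm heads become round. *SPACA1* (ENSBGRG00000022908) had an FPKM of 598, 698 and 435 at 4 years, 3.69, 2.25 and 1.57 in cattle–yak, and 0.59, 0.50 and 0.20 at 6 months. It was the most highly translated of the 9 genes per length at 4 years, with a mean FPKM of 577 ± 133 (SD, n = 3), and the 3 groups did not overlap. At 18 months it had 228 in replicate 2 and 0.96 and 2.87 in replicates 1 and 3. ZPBP and its paralog ZPBP2 lie in the acrosomal matrix and bind the zona pellucida, the coat of the egg. *ZPBP* (ENSBGRG00000021319) had an FPKM of 165, 184 and 154 at 4 years, 11.1, 8.95 and 8.56 in cattle–yak, and 1.90, 1.05 and 0.81 at 6 months. *ZPBP2* (ENSBGRG00000021284) had 57.7, 51.5 and 64.3 at 4 years, 5.42, 6.50 and 5.38 in cattle–yak, and 3.59, 2.31 and 0.96 at 6 months. For both genes every cattle–yak library was between the mature and the juvenile yaks, and the step to the juvenile yaks was smaller for *ZPBP2*. At 18 months replicate 2 had 86.2 for *ZPBP* and 33.6 for *ZPBP2*, while replicates 1 and 3 had 2.73 and 3.59 for *ZPBP* and 1.04 and 3.01 for *ZPBP2*. The paralogs did not keep 1 ratio of counts across the libraries. *ZPBP2* had 0.273 to 0.409 counts per count of *ZPBP* at 4 years, 0.404 to 0.519 in cattle–yak and 1.08 to 1.48 at 6 months, where the counts were low (26 to 62 per library and gene). At 18 months the ratio was 0.265, 0.382 and 0.559 in replicates 1, 2 and 3.

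*SPATA16*, *GOPC* and *PICK1* act where Golgi vesicles build the acrosome. SPATA16 is a testis protein of the Golgi apparatus and the forming acrosome. *SPATA16* (ENSBGRG00000003501) had an FPKM of 47.9, 47.2 and 47.7 at 4 years, which was the smallest spread of the 9 genes in that group, with a mean of 47.6 ± 0.318 (SD, n = 3). It had 1.06, 1.05 and 0.44 in cattle–yak, 0.09, 0.18 and 0.04 at 6 months, and 0.25, 23.7 and 0.54 at 18 months. All cattle–yak libraries were thus above all juvenile libraries, at counts of 28 to 92 per cattle–yak library and 2 to 11 per juvenile library. GOPC and PICK1 bind each other through their PDZ domains and take part in traffic from the Golgi apparatus in many tissues as well as in spermatids. *GOPC* (ENSBGRG00000007399) had an FPKM of 42.8, 53.3 and 58.9 at 6 months, 55.1, 76.2 and 63.0 at 18 months, 76.5, 87.8 and 91.0 at 4 years, and 114, 108 and 105 in cattle–yak. It was the highest of the 9 genes in all libraries of 6 months and of cattle–yak, and it was the only one of them with its highest levels in cattle–yak. *PICK1* (ENSBGRG00000002191) had an FPKM of 8.39, 11.6 and 10.9 at 6 months, 11.4, 29.4 and 14.8 at 18 months, 43.0, 41.6 and 46.1 at 4 years, and 14.3, 14.1 and 15.1 in cattle–yak. Unlike *GOPC*, *PICK1* had its highest levels in the mature yaks, with replicate 2 of yak of 18 months next. Neither gene came near 0 in any library.

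*DPY19L2* and *SUN5* encode proteins of the spermatid nuclear envelope. DPY19L2 of the inner nuclear membrane anchors the acrosome to the nucleus. *DPY19L2* (ENSBGRG00000007950) had an FPKM of 288, 251 and 428 at 4 years, 6.98, 3.95 and 1.76 in cattle–yak, and 0.14, 0.12 and 0.06 at 6 months. The cattle–yak libraries were all above the juvenile ones, and replicate 1 of cattle–yak was 3.97 times as high as replicate 3. At 18 months *DPY19L2* had 8, 8291 and 54 counts in replicates 1, 2 and 3, the widest spread within a group among the genes with counts in all libraries. SUN5 sits where the tail attaches to the head, and its loss gives headless sperm. *SUN5* (ENSBGRG00000004983) had an FPKM of 115, 156 and 76.2 at 4 years, and no counts in any juvenile library. At 18 months it had 0, 1263 and 1 counts, and in cattle–yak its FPKM was 0.35, 0.05 and 0. *SUN5* was the only one of the 9 genes with libraries at 0 counts, which were all of 6 months, 1 of 18 months and 1 of cattle–yak.

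HOOK1 links the manchette to its cargo, and a mutation of its gene gives abnormal sperm heads in mice. *HOOK1* (ENSBGRG00000024297) had an FPKM of 96.1, 90.4 and 112 at 4 years, 24.6, 16.2 and 18.9 in cattle–yak, 3.92, 5.15 and 3.87 at 6 months, and 6.85, 70.2 and 15.1 at 18 months. Cattle–yak lay between the juvenile and the mature yaks without overlap, and replicate 3 of yak of 18 months, at 15.1, came close to the lowest cattle–yak library.

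**Figure D2:**
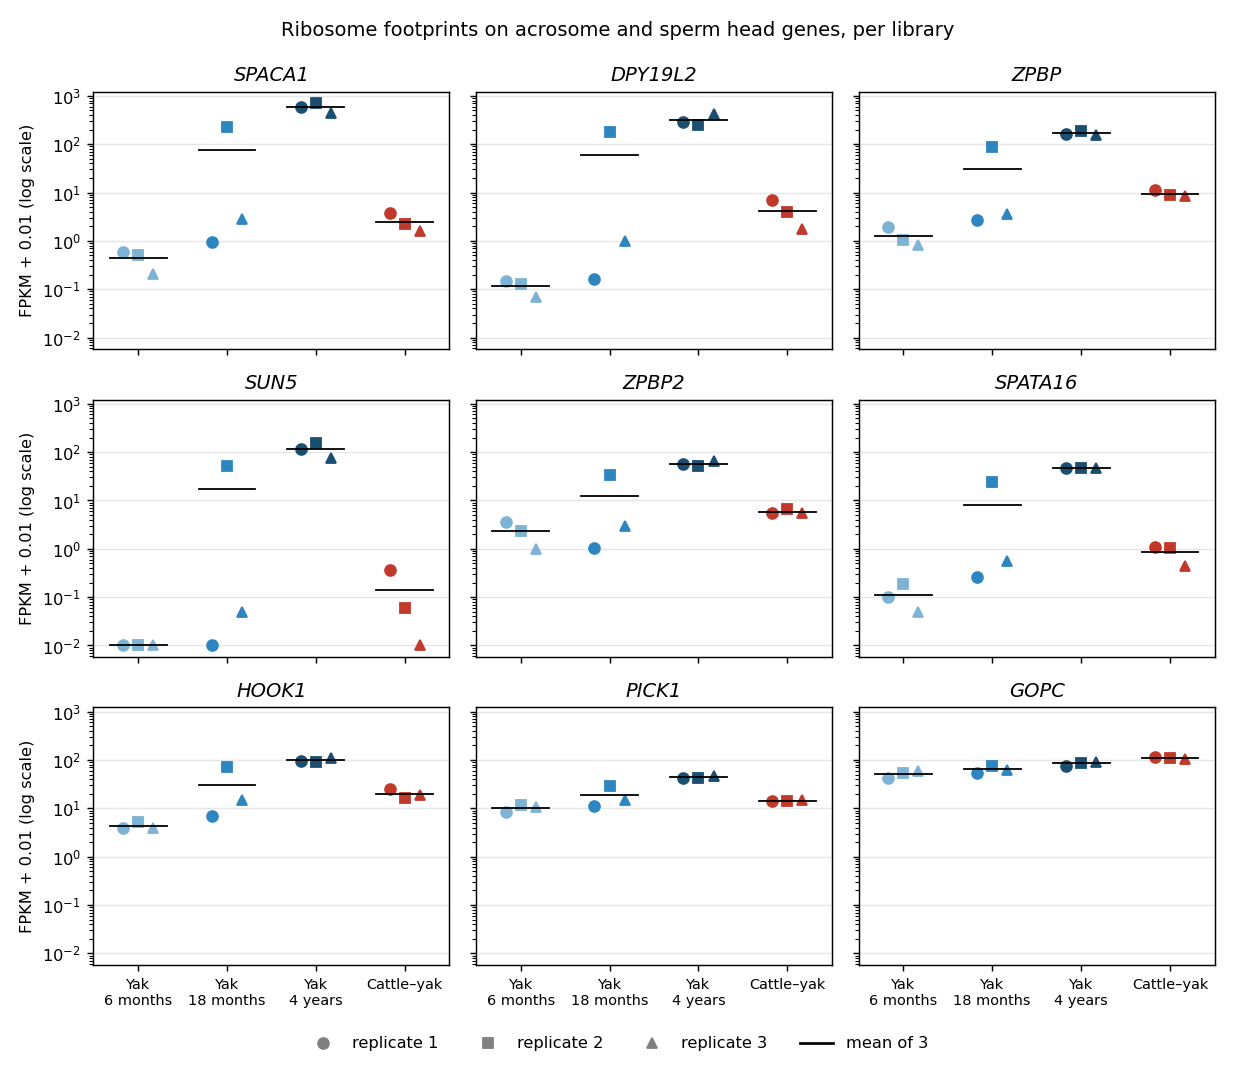
FPKM + 0.01 of each of the 9 genes (1 panel per gene, vertical axis on a log scale) in the 4 groups (horizontal axis); points are single libraries, their shape gives the replicate, lines are the mean of 3, and libraries without counts lie at 0.01. In each panel but that of GOPC the mature yaks are highest, and replicate 2 of yak of 18 months lies near them.

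To ask how the 9 genes differ with the maturation of the yak testis, yaks of 4 years were compared with yaks of 6 months, a comparison that was added after the levels at 18 months had been seen. Of the 9 genes, 8 rose and *GOPC* was not called. Calls were made with edgeR's quasi-likelihood test, with p-values adjusted by Benjamini-Hochberg over all tested genes, at an adjusted p below 0.05 and a change of at least 1 on the log2 scale, up or down. By this rule 31.0% of 16133 tested genes were higher at 4 years. *SUN5*, *SPATA16*, *DPY19L2* and *SPACA1*, with at most 17 counts per juvenile library, passed the filter on low counts through the mature yaks. For these genes a fall could not have been called. The FPKM of the groups did not overlap for any of the 9 genes, as for 53.1% of tested genes in this direction. The log2 fold change was 10.96 for *DPY19L2* (SE 0.397, edgeR adjusted p 7.48e-08), 9.85 for *SPACA1* (SE 0.418) and 8.18 for *SPATA16* (SE 0.323). It was 6.45 for *ZPBP* (SE 0.346), 4.61 for *ZPBP2* (SE 0.323) and 3.96 for *HOOK1* (SE 0.177). *SUN5*, without counts at 6 months, was at least 903-fold higher when 3 counts were taken for each juvenile library. *PICK1* rose 2.87-fold, a log2 fold change of 1.52 (SE 0.145, edgeR adjusted p 1.73e-05). *GOPC* had a log2 fold change of 0.16 (SE 0.138, edgeR adjusted p 0.329), and its CPM (counts scaled to the library total, with TMM factors) overlapped between the groups although its FPKM did not. Scaling by library size alone moved the median of all genes in this comparison up by 0.57 on the log2 scale, and the 8 genes were called with each scaling. Markers of other cells differed between these groups too, and 24.7% of all tested genes were lower at 4 years. Higher at 4 years were 7 of 7 round spermatid, 5 of 5 elongating spermatid and 6 of 7 spermatocyte markers. Lower were 6 of 7 Sertoli, 2 of 2 Leydig, 3 of 6 peritubular myoid, 5 of 5 fibroblast and 5 of 6 endothelial cell markers. Markers not found by symbol are left out of all such counts. Among them were *CYP17A1*, *HSD3B1*, *HSD3B2*, *INSL3* and *LHCGR* of Leydig cells. *PRM1*, *PRM2*, *PRM3*, *TNP2* and *AKAP4* of elongating spermatids were not found either. Of 6 macrophage markers 2 were higher and 2 lower, and of 6 spermatogonia markers 1 was higher and 1 lower. The part of these cells in the levels of the 9 genes was not tested.

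The 3 animals of 18 months differed widely, and none of the 9 genes was called. Against yaks of 6 months, 7 of the 9 genes passed the filter on low counts and 0 were called by edgeR, where 0.0672% of 14874 tested genes were called in either direction. An unadjusted p below 0.05 was reached by 4 of them, *SPATA16*, *ZPBP*, *SPACA1* and *HOOK1*, and DESeq2 called 1, *HOOK1*. *DPY19L2* and *SUN5* did not pass the filter. Between yaks of 4 years and of 18 months all 9 were tested and 0 were called by edgeR, where 0.0371% of 16175 genes were called. Here an unadjusted p below 0.05 was reached by *PICK1* alone, and DESeq2 called *PICK1* and *HOOK1*.

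Without replicate 2 of yak of 18 months, the other 2 libraries were far below the mature yaks. In edgeR 8 of the 9 genes were then higher at 4 years than at 18 months, against 26.1% of 16377 tested genes, with log2 fold changes from 1.52 for *PICK1* (SE 0.180, edgeR adjusted p 0.000498) to 8.94 for *DPY19L2* (SE 0.759, edgeR adjusted p 0.000104) among genes with counts in each remaining library. In the remaining libraries of 18 months *SUN5* had 0 and 1 counts, *DPY19L2* 8 and 54, and *SPATA16* 10 and 22. These genes passed the filter on low counts through the mature yaks, so a fall could not have been called. *GOPC* again had a small value, 0.31 (SE 0.161, edgeR adjusted p 0.142). Against yaks of 6 months, 0 of 7 genes were called without replicate 2, against 0.226% of 15071 genes called higher. Without replicate 1, in place of replicate 2, 5 of 8 tested genes were higher than at 6 months, against 8.7% of 15454 genes. Of those called, *DPY19L2* and *SPATA16*, with at most 11 counts per juvenile library, passed the filter through the libraries of 18 months. A fall of either could not have been called there. These comparisons share the libraries of 18 months, and those with 4 years share the mature yaks with the comparison of cattle–yak.

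Expressed as a percentage of the mean CPM at 4 years, the genes of replicate 2 of yak of 18 months lay in a narrow range. They were at 40.1% (*SPACA1*), 45.8% (*SUN5*), 50.6% (*SPATA16*), 51.9% (*ZPBP*), 56.2% (*DPY19L2*), 59.1% (*ZPBP2*), 68.6% (*PICK1*), 71.6% (*HOOK1*) and 91.2% (*GOPC*). In replicates 1 and 3 the same genes spread widely. *PICK1* was at 33.8% and 36.7%, *HOOK1* at 8.82% and 16.3%, *ZPBP2* at 1.70% and 3.96%, and *DPY19L2* at 0.0617% and 0.337%. In these 2 libraries *PICK1* was thus close to its juvenile level, which was 31.4% to 36.7%.

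In cattle–yak the 9 genes were also spread widely on this scale. *GOPC* was at 125% to 137%, *PICK1* at 33.2% to 35.8%, *HOOK1* at 16.5% to 25.3%, *ZPBP2* at 7.92% to 8.23% and *ZPBP* at 5.30% to 6.84%. These 5 ranges did not overlap. *SPATA16* followed at 0.951% to 2.28%, *DPY19L2* at 0.566% to 2.23%, *SPACA1* at 0.266% to 0.612% and *SUN5* at 0% to 0.297%, and each of these overlapped with the next in the order. The retained percentage of *PICK1* in cattle–yak lay within its juvenile range, whereas those of *HOOK1*, *ZPBP2*, *ZPBP*, *SPATA16*, *DPY19L2* and *SPACA1* lay above theirs. On CPM, replicate 1 of cattle–yak was the highest of its group for 8 of the 9 genes, with *PICK1* the exception, while on FPKM *ZPBP2* was highest in replicate 2. The same library had the highest summed FPKM of 7 spermatocyte markers, 488 against 311 and 377, and of 7 round spermatid markers, and the part of these cells in the levels was not tested.

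**Figure D3:**
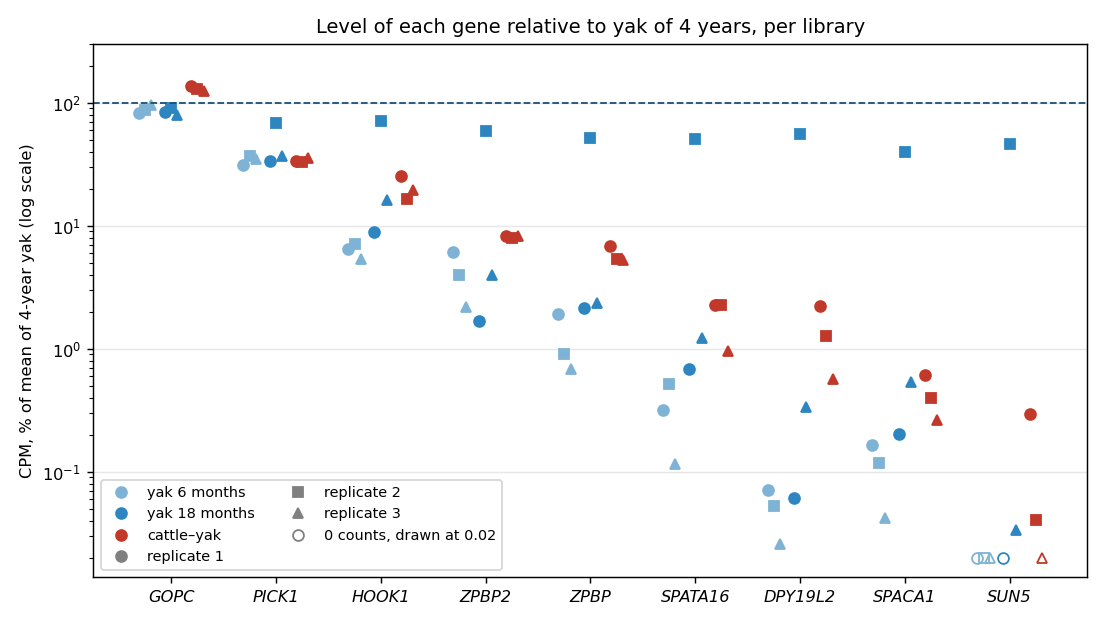
TMM-scaled CPM of each gene in each library as a percentage of the mean of yak of 4 years (vertical axis, log scale), for the 9 genes (horizontal axis), with yak of 6 months in light blue, yak of 18 months in blue and cattle–yak in red; the symbol gives the replicate and libraries without counts are open symbols drawn at 0.02. The cattle–yak points fall from 125% to 137% for GOPC to at most 0.297% for SUN5, while replicate 2 of yak of 18 months stays at 40.1% or above for all 9 genes.

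To ask which of the genes differ in the hybrid, cattle–yaks were compared with yaks of 4 years. Called lower were 8 of the 9 genes, against 27.0% of 16498 tested genes, and 0 were called higher, against 17.1%. The median log2 fold change of the 9 genes was -4.12, and that of all tested genes was -0.00. The FPKM of the groups did not overlap for any of the 9 genes, which was also true of 36.8% of tested genes with lower and 34.3% with higher levels in cattle–yak. The largest fold changes were those of *SUN5* and *SPACA1*. *SUN5* had a log2 fold change of -9.58 (SE 0.664), which ranged from -12.1 to -9.06 when 1 library was left out and rests on 20, 2 and 0 counts in cattle–yak. *SUN5* passed the filter on low counts through the mature yaks, so a rise could not have been called for it. *SPACA1* fell 235-fold, a log2 fold change of -7.87 (SE 0.384, edgeR adjusted p 1.41e-06). *DPY19L2* and *SPATA16* had log2 fold changes of -6.22 (SE 0.536) and -5.77 (SE 0.315). The genes of the acrosomal matrix and the manchette had smaller fold changes. *ZPBP* fell 17.4-fold (log2 fold change -4.12, SE 0.168, edgeR adjusted p 7.44e-07) and *ZPBP2* 12.5-fold (log2 fold change -3.65, SE 0.146, edgeR adjusted p 6.77e-07). *HOOK1* fell 4.98-fold (log2 fold change -2.32, SE 0.188, edgeR adjusted p 1.64e-05). *PICK1*, placed with *GOPC* at the outset, fell 2.98-fold as well (log2 fold change -1.57, SE 0.116, edgeR adjusted p 1.02e-05). *GOPC* was 1.28-fold higher in cattle–yak (log2 fold change 0.36, SE 0.114), with an edgeR adjusted p of 0.0221 but a change below the threshold of a call.

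Markers of spermatids moved with these 8 genes. The 7 round spermatid and 5 elongating spermatid markers that were found all fell in cattle–yak, and the summed FPKM of the elongating spermatid markers was 76.1 to 159 against 8851 to 12043 in mature yaks. Of 7 spermatocyte markers 2 fell and 5 were not called, with a summed FPKM of 311 to 488 against 480 to 487. Called higher, against 17.1% of all tested genes, were 3 of 6 spermatogonia, 6 of 6 peritubular myoid, 4 of 5 fibroblast, 3 of 7 Sertoli and 2 of 2 Leydig cell markers. Called lower, against 27.0%, were 1 of 6 endothelial and 2 of 6 macrophage markers. The part of these cells in the levels of the 9 genes was not tested. *ACRV1* was counted among the round spermatid markers and among the acrosome genes, and *ODF1* among the elongating spermatid markers and the genes of head to tail coupling.

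To ask whether the hybrid testis held more than the juvenile testis, cattle–yaks were compared with yaks of 6 months. Of the 9 genes, 5 rose, against 18.1% of 15571 tested genes, 0 fell, against 19.7%, and *SUN5* did not pass the filter on low counts. *SPATA16*, *DPY19L2* and *SPACA1*, with 2 to 11, 4 to 10 and 5 to 17 counts per juvenile library, passed it through cattle–yak. For these genes a fall could not have been called. The FPKM of 8 of the 9 genes was higher in cattle–yak without overlap, as for 50.8% of tested genes. *PICK1* was among these 8, but its CPM overlapped between the groups. *DPY19L2* rose most, 26.9-fold (log2 fold change 4.75, SE 0.618, edgeR adjusted p 0.000358). *SPATA16* rose 5.49-fold (SE 0.658 on the log2 scale, edgeR adjusted p 0.0125) and *ZPBP* had a log2 fold change of 2.32 (SE 0.382, edgeR adjusted p 0.00116). *SPACA1* rose 3.89-fold (SE 0.573, edgeR adjusted p 0.0184) and *HOOK1* 3.17-fold (SE 0.196, edgeR adjusted p 0.000218). The call of *SPACA1* was lost without replicate 1 of cattle–yak, that of *SPATA16* in limma on log2(FPKM + 1), where its value was 0.73, and with all 12 libraries in 1 fit *HOOK1* was the only one of the 9 genes called. *ZPBP2* had a log2 fold change of 0.97 (SE 0.378, edgeR adjusted p 0.0561) and *GOPC* of 0.54 (SE 0.125, edgeR adjusted p 0.00667), below the threshold of a call. Both passed it, as higher in cattle–yak, when libraries were scaled by their size alone and in both limma fits on FPKM, with 1.07 to 1.08 for *GOPC*, and *ZPBP2* also without replicate 1 of yak of 6 months, with 1.12 to 1.53 over these alternatives. *PICK1* had -0.03 (SE 0.143, edgeR adjusted p 0.874) and 0.50 when libraries were scaled by their size alone, which moved the median of all genes up by 0.54. The spermatocyte markers moved with the 5 genes, as 6 of 7 rose and their summed FPKM was 125 to 188 at 6 months. Of the spermatid markers that could be tested, 1 of 3 round and 1 of 2 elongating rose. Of 6 spermatogonia markers 4 rose and 1 fell, and 3 of 6 peritubular myoid cell markers rose. Of the other somatic markers, 6 of 6 endothelial, 5 of 5 fibroblast, 2 of 2 Leydig and 3 of 7 Sertoli cell markers fell, while 4 of 6 macrophage markers fell and 1 rose. The part of these cells in this comparison was not tested. Against yaks of 18 months, 8 genes were tested and 0 were called by edgeR or DESeq2, where edgeR called 5.8% of 15702 genes. There *GOPC* and *SPACA1* had an unadjusted p below 0.05. Without replicate 2 of yak of 18 months, *ZPBP* was the only one of the 9 genes called, with a log2 fold change of 1.35 (SE 0.261, edgeR adjusted p 0.0198), against 7.22% of 16139 genes called higher. With that library its value was -1.68 (SE 1.202, edgeR adjusted p 0.372). The log2 fold changes of *DPY19L2*, *SPATA16*, *ZPBP2*, *SPACA1* and *HOOK1* were likewise below 0 with replicate 2 and above 0 without it, and none of these was called.

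**Figure D4:**
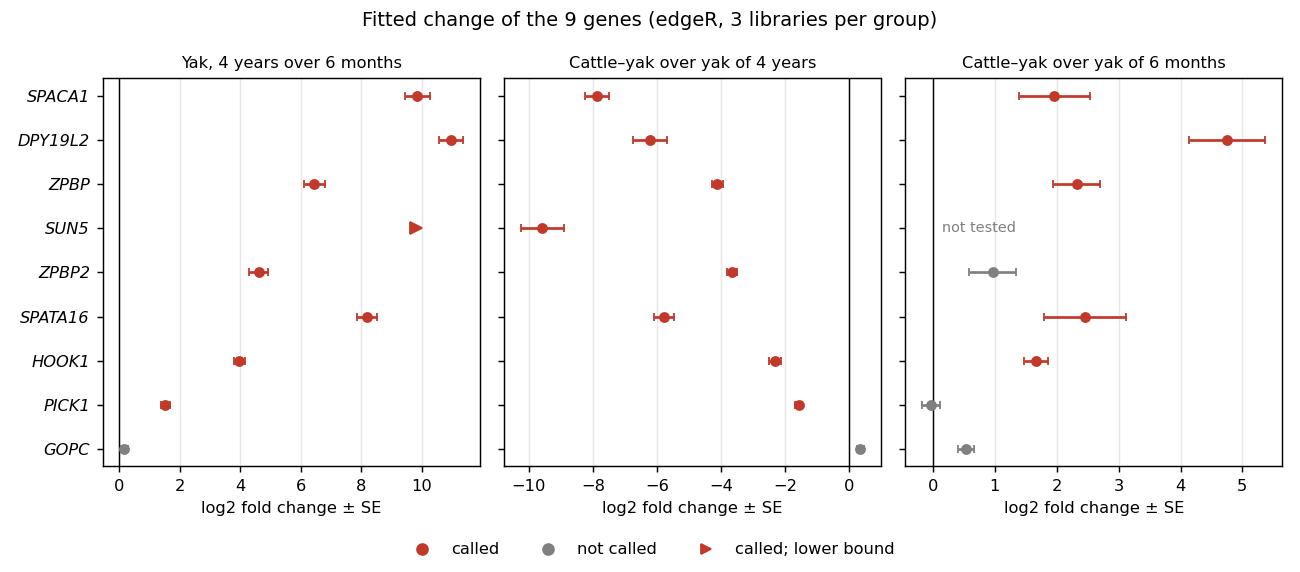
Log2 fold change with its standard error (horizontal axes) of the 9 genes (vertical axis) in yak of 4 years over 6 months, cattle–yak over yak of 4 years and cattle–yak over yak of 6 months, from edgeR with 3 libraries per group. Red points were called, grey ones were not, and the triangle is a lower bound for SUN5, which had no counts at 6 months. GOPC is not called in any panel, and 8, 8 and 5 of the 9 genes are.

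Across the 12 libraries, the level of 8 of the genes went together and that of *GOPC* did not. Pearson's correlation of log2(CPM + 1) was 0.912 (*PICK1* with *HOOK1*) to 0.997 (*SPATA16* with *SPACA1*) for pairs without *GOPC* and -0.05 to 0.22 for pairs with it. Without replicate 2 of yak of 18 months these were 0.909 to 0.997 and -0.021 to 0.28 over 11 libraries, a choice made after the levels had been seen. These values describe 12 libraries whose groups differ in their cells and depth, and carry no p-value. Among 11068 genes with a symbol and a mean CPM of at least 1, the 3 most like each of the 9 were looked up over all 12 libraries. The 3 most like *SPACA1* were *TEKT1*, *RIBC2* and *ACRV1* (0.998 each), of which ACRV1 is a protein of the acrosomal matrix and TEKT1 one of flagellar microtubules. *SPATA16* was most like *RSPH9*, *SLC26A8* and *CFAP65* (0.999), *DPY19L2* like *YBX2*, *LCA5L* and *RFX4* (0.998), and *SUN5* like *HEATR9*, *TEPP* and *CCT8L2*. YBX2 binds stored mRNAs of germ cells, RSPH9 belongs to the radial spokes of cilia and flagella, and SLC26A8 is an anion transporter of the sperm annulus. *ZPBP* was most like *MLF1*, *ARMC2* and *WDR78* (0.995), and *ZPBP2* like *DRC3* (0.993), *TMPRSS12* (0.992) and *AKR1E2* (0.991). *HOOK1* was most like *KIAA1841* (0.997), *MED12L* and *HSPA4L* (0.996), and *PICK1* like *FLACC1* (0.996), *TEDDM1* and *IQCF6* (0.994). For *GOPC* the closest genes were *SEC23IP* (0.976), which encodes a protein of vesicle exit from the endoplasmic reticulum, *SYTL3* (0.967) and *ADD3* (0.961).

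Other genes of the same structures were taken from lists written from general knowledge, of which 81 genes were found and tested in cattle–yak against yak of 4 years. Of these, 54 fell, 5 rose and 22 were not called, against 27.0% lower and 17.1% higher of all tested genes, and the median log2 fold change was -2.92. Listed genes near 0 counts in cattle–yak, such as *ACTRT1*, *SPATA46* and *SUN3*, passed the filter on low counts only through the mature yaks. For such genes a rise could not have been called. The lists differed among themselves. Of 20 listed genes of the acrosome contents and membrane 11 were found by symbol, and all 11 fell, with a median of -6.85. *ACR*, *SPAM1* and *EQTN* were among those not found. *PRSS37*, which encodes a serine protease homolog needed for sperm to reach the egg, had a log2 fold change of -10.4 (SE 0.969) with 85, 4 and 1 counts in cattle–yak. *CRISP2*, which encodes a protein of the acrosome and tail, had -10.1 (SE 0.634) with 39, 5 and 2 counts. Of 14 genes of the acroplaxome, perinuclear theca and inner nuclear membrane, which fix the acrosome to the nucleus as DPY19L2 does, 12 fell and 1 rose, with a median of -8.73. *ACTRT1*, an actin-related gene of the theca, had 450 to 587 counts at 4 years and none in cattle–yak, at least 412-fold lower when 3 counts were taken for each cattle–yak library. *SPATA46* had 510 to 714 counts at 4 years and 1 in each cattle–yak library. *KRT5*, a keratin of epithelia, was the one that rose, from a mean FPKM of 0.297 to 0.937 (log2 fold change 1.66, SE 0.497, edgeR adjusted p 0.0176).

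Of 18 genes of Golgi and vesicle traffic, in which GOPC, PICK1 and SPATA16 take part, 3 fell and 3 rose (16.7% each), against 27.0% and 17.1% of all tested genes, and the median was -0.28. *GBA2*, which encodes a glucosylceramidase (log2 fold change -2.55, SE 0.153, edgeR adjusted p 3.59e-06), and *PSMA8*, a proteasome subunit of germ cells (-2.50, SE 0.326), fell. *STX12*, a syntaxin of endosomes, rose from a mean FPKM of 59.7 to 196 (log2 fold change 1.72, SE 0.141, edgeR adjusted p 1.73e-05), and *RAB27B*, a GTPase of secretory vesicles, rose from 1.87 to 3.98 (1.10, SE 0.377, edgeR adjusted p 0.0314). Of 19 genes of head to tail coupling and of the LINC complex, which spans the nuclear envelope, 16 fell and 3 (*SUN2*, *SYNE2* and *SYNE3*) were not called, with a median of -4.43. The lowest were *ODF1*, of the outer dense fibres of the tail (-10.0, SE 0.880, with 56, 2 and 0 counts in cattle–yak), and *SUN3* (-8.93, SE 0.443, with 8, 6 and 0 counts). Of 16 manchette genes 11 fell, 1 rose and 4 were not called, with a median of -1.52. *MEIG1*, whose protein helps bring cargo to the manchette, had -7.50 (SE 0.369). *CEP131*, a centrosome gene, rose from a mean FPKM of 1.16 to 2.36 (1.05, SE 0.266, edgeR adjusted p 0.00794).

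**Figure D5:**
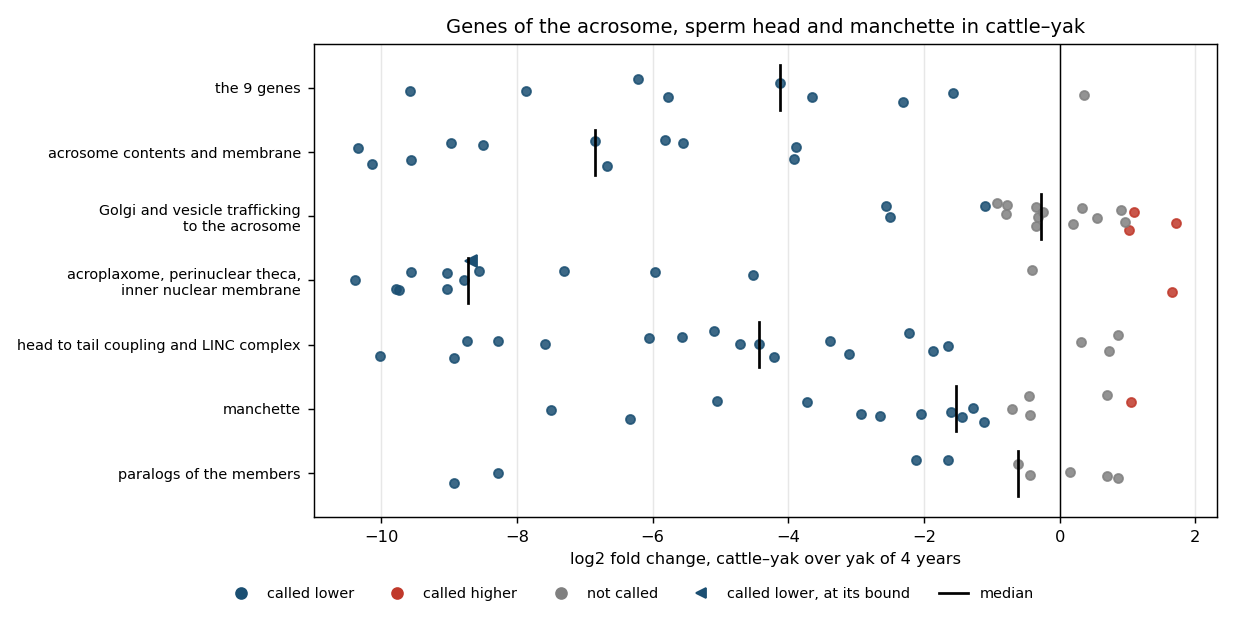
Log2 fold change in cattle–yak over yak of 4 years (horizontal axis) of the 9 genes and of the genes of 6 lists (vertical axis); each point is 1 gene, blue where it was called lower, red where called higher and grey where not called, and the line is the median of the list. The triangle marks ACTRT1, which had no counts in cattle–yak, at its bound. The Golgi list is centred at -0.28 and the acrosome contents at -6.85.

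Paralogs of the 9 genes did not all follow them. *SUN3* and *SPAG4*, SUN domain genes of spermatids as *SUN5* is, had log2 fold changes of -8.93 and -8.28 (SE 0.197) in cattle–yak against yak of 4 years. *SUN1*, which is widely made and has a role in meiosis, fell from a mean FPKM of 152 to 48.4 (-1.65, SE 0.109), and *SUN2*, also widely made, had 0.86 (SE 0.163, edgeR adjusted p 0.00189), below the threshold of a call. *SPACA6*, a sperm membrane gene of fertilization that was listed with the paralogs for its name, had -2.12 (SE 0.326). *DPY19L3* and *DPY19L4*, relatives of *DPY19L2*, were not called, at 0.15 (edgeR adjusted p 0.309) and -0.61 (edgeR adjusted p 0.0122). The relatives of *HOOK1* were not called either, with -0.44 for *HOOK2* (edgeR adjusted p 0.0657) and 0.70 for *HOOK3* (edgeR adjusted p 0.000412). Of the 9 paralogs found, *SPACA6* among them, 4 fell (44.4%), against 27.0% of all tested genes. The other 5 were not called, and the median was -0.61.

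In the maturing yak the same 81 genes were compared between 4 years and 6 months, where 57 rose, 6 fell and 18 were not called, against 31.0% higher and 24.7% lower of all tested genes, and the median log2 fold change was 3.89. All 11 acrosome genes, 12 of 14 of the acroplaxome list, 15 of 19 of the head to tail list and 13 of 16 manchette genes rose, but 5 of 18 of the Golgi list did. Between cattle–yak and yak of 6 months 62 of these genes were tested, of which 16 rose (25.8%) and 4 fell (6.45%), against 18.1% and 19.7% of all tested genes. Listed genes near 0 counts at 6 months could pass the filter only through the other group, here and at 4 years. Among the acrosome genes, *CALR3*, a chaperone of the germ cell endoplasmic reticulum, rose from a mean FPKM of 2.47 to 43.9 (log2 fold change 3.62, SE 0.334, edgeR adjusted p 6.87e-05). At low levels, *TMPRSS12* rose from 0.117 to 1.63 (3.27, SE 0.879, edgeR adjusted p 0.0128) and *SPACA9* from 0.273 to 1.68 (1.93, SE 0.724, edgeR adjusted p 0.0488). *PCSK4*, a proprotein convertase of the acrosome, fell from 7.60 to 1.75 (-2.68, SE 0.327, edgeR adjusted p 0.000257). These 4 genes were named after their values were seen. Both comparisons share the juvenile yaks, and the first shares the mature yaks with the comparison of cattle–yak and yak of 4 years.

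FPKM depends on the length that RSEM assigns to a gene in each library, so the counts per FPKM unit of each gene were compared between cattle–yak and yak of 4 years, relative to the median gene of the library. For *ZPBP2* this was 0.574 ± 0.0704 (SD, n = 3) in cattle–yak and 0.717 ± 0.00827 (SD, n = 3) in mature yak, a ratio of 0.800 (exact permutation test, p = 0.1, two-sided, the smallest p that 3 against 3 allows). In the other yaks it was 0.435, 0.520 and 0.683 at 6 months and 0.523, 0.718 and 0.506 at 18 months. The same smallest p was reached by *SPACA1*, with a ratio of 0.962, and *HOOK1*, with 0.995. For the 8 genes other than *ZPBP2* the ratio was 0.937 (*SUN5*, with 2 cattle–yak libraries above 0) to 1.003. On FPKM the fall of *ZPBP2* in cattle–yak is thus smaller than on counts, by which the tests were made.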

How the data were processed

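RFs of 12 testis libraries were analysed. Per the study's methods, which describe the libraries of 4 years, the authors trimmed reads, removed rRNA and small RNA, and aligned RFs of yak and cattle–yak alike to the yak genome with STAR. How far RFs of cattle alleles align to that genome was not tested. The expected counts, deposited as whole numbers without normalization, and the FPKM were made by the authors with RSEM. Their columns of log2 fold change, p-value and FDR and their tables of group means were not used.

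Groups were those of the labels, with 1 library per animal. Replicates differed by more than counting noise (chi-square of 27.7 to 354 per degree of freedom). The 6 libraries of each comparison were tested on counts with edgeR 4.0.16 in R 4.3.3 (filterByExpr, TMM, quasi-likelihood test, Benjamini-Hochberg adjustment). SE is the size of the log2 fold change over the square root of F. Bounds take 3 counts for a library at 0 and cover counting error only. As alternatives, DESeq2 1.42.0, other scalings (library size, RLE, upper quartile), no filter, all 12 libraries, limma 3.58.1 on log2(FPKM + 1) or log2(FPKM + 0.1), replicate blocks and leaving out each library were run. The script was tested on simulated data. Figures used matplotlib 3.10.9.

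The genes, lists and tests were chosen with earlier results of these data known. Named were the 9 genes, the 2 lowest and 2 highest called genes of each list, all paralogs found and the 3 genes most like each member, of which 1 listed gene is not reported here. No sequences or positions are given, since no genome of the authors' build was used here.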

Additional observations from a re-analysis of the deposited data

How the results depend on the processing

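The calls of 8 genes in cattle–yak against yak of 4 years and of 8 genes between 4 years and 6 months held in all 15 alternatives, and the listed genes called in these comparisons stayed at 55 to 61 and at 62 to 69, where 35.3% to 44.8% and 47.7% to 56.3% of all tested genes were called in either direction. Of 750 values of single genes over the alternatives, 693 kept their direction and call, 6 lost the call, 28 gained it and 23 changed sign. Between 18 and 6 months, where 0 members and 0 listed genes were called, DESeq2 called 1 and 6 (12.6% of all tested genes), the fit of all 12 libraries 5 and 24 (15.7%), and leaving out a library 0 to 5 and 0 to 18 (0% to 16.8%). Between 4 years and 18 months, again with 0 and 0, DESeq2 called 2 and 23 (27.1%), all 12 libraries 1 and 18 (20.6%), and leaving out a library 0 to 8 and 0 to 62 (0% to 44.6%). Against yaks of 6 months, cattle–yak had 5 and 20 (37.8%), but 1 and 10 with all 12 libraries (32.1%), 7 and 26 when scaled by library size (43.3%), 6 and 24 with limma at a pseudocount of 1 (33.5%), 7 and 25 at one of 0.1 (43.9%), and 4 to 6 and 18 to 24 with a library left out (34.5% to 37.0%). Against yaks of 18 months it had 0 and 2 (5.8%), DESeq2 called 5 listed genes (15.3%), all 12 libraries 1 and 19 (15.5%), limma on log2(FPKM + 0.1) 1 listed gene (6.86%), the replicate block 0 (0.00637%), and leaving out a library 0 to 1 and 0 to 8 (0% to 15.3%). The cause was not tested.

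Sign changes were found between 18 and 6 months for *GOPC* (-0.02), with 0.34 by library size alone, 0.32 and 0.33 in limma and -0.10 to 0.023 with a library left out, and for *ZPBP2*, with -0.52 (without Y18M replicate 2) to 2.97. In cattle–yak against 6 months *PICK1* had 0.50 by library size alone, 0.47 and 0.51 in limma and -0.094 to 0.020 with a library left out. Against 18 months, leaving out a library gave -4.42 to 2.72 for *DPY19L2*, -3.79 to 0.91 for *SPATA16*, -2.19 to 1.35 for *ZPBP*, -1.93 to 1.49 for *ZPBP2*, -5.55 to 0.18 for *SPACA1* and -1.09 to 0.68 for *HOOK1*, with each upper end reached without Y18M replicate 2. Limma on log2(FPKM + 0.1) gave 0.046 for *DPY19L2*, 0.25 for *ZPBP2* and 0.013 for *HOOK1*, and on log2(FPKM + 1) 0.039 for *ZPBP2*. The replicate block gave 0.44 for *DPY19L2*, 0.093 for *ZPBP* and 0.29 for *ZPBP2*. Of these 23 values only that of *ZPBP* without Y18M replicate 2 was called.

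Replicate numbers name different animals and did not pair the libraries, with correlations of deviations of -0.332 to 0.159. With the block, the members called in cattle–yak against yak of 4 years stayed at 8. Scaling by library size alone moved the median of all genes by 0.57 (4 years against 6 months), 0.54 (cattle–yak against 6 months) and 0.37 (18 against 6 months), and turned 3067 lower and 2823 higher genes in cattle–yak against 6 months into 1875 and 4867. Between 4 years and 6 months it turned 3985 and 5009 into 2493 and 6596. The count per FPKM of *ZPBP2* relative to yak of 4 years was 0.770 to 0.857 with a library left out. Low counts limit *SUN5* in cattle–yak and *SPATA16*, *DPY19L2* and *SPACA1* at 6 months. They also limit *SUN5*, *DPY19L2* and *SPATA16* in replicates 1 and 3 of yak of 18 months.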
